A study of Homo sapiens with 4 samples.

Results

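The enzymes that take methyl and acetyl groups off histones were followed in an acute myeloid leukemia line of human origin, MOLM-14, after exposure to DZNep. The set held 39 genes: 21 histone demethylases, 11 zinc-dependent histone deacetylases (HDACs) and 7 sirtuins. Each gene was read from probe sets annotated with its symbol alone, taking the probe set with the highest mean log2 intensity over the arrays, and all 39 were found among 18377 genes. DZNep at 2 µM was given for 24 h to 2 samples, and the solvent DMSO to 2 control samples for the same time. All 4 samples came from this single line grown in serum-supplemented RPMI1640, and each was hybridised to 1 Affymetrix whole-transcript array. The labels call them biological replicates and do not tell if each was its own culture, so p-values rest on the spread among these 4 samples, part of which may be technical.

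Histone demethylases work by oxidation. KDM1A and KDM1B use a flavin cofactor, and the JmjC enzymes use iron, oxygen and alpha-ketoglutarate. HDACs remove acetyl groups by zinc-dependent hydrolysis, mostly inside corepressor complexes, whereas sirtuins consume NAD in the same task. DZNep, 3-deazaneplanocin A, acts on the opposing side of histone methylation: it inhibits S-adenosylhomocysteine hydrolase, which holds back methyltransferases, and it is used to deplete EZH2. In acute myeloid leukemia KDM1A and the HDACs are themselves drug targets.

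Most of the 39 genes differed little between DZNep and DMSO. At a limma adjusted p under 0.05, HDAC9 and SIRT4 were higher with DZNep, KDM1A and HDAC2 were lower, and 35 genes did not pass. That is 10.3% of the set, beside 10.3% of all genes tested, so the share of changed genes among these enzymes was that of the array as a whole. By direction, 2 of 39 rose (background 3.62%) and 2 fell (background 6.68%). At an unadjusted p under 0.05 the counts were 4 higher and 3 lower, beside 22.2% of all genes (9.43% higher and 12.7% lower), the additional genes being KDM5B, SIRT2 and KDM4A. No member reached a 1.5-fold difference, which 4.30% of all genes did. With each array left out, the log2 difference was −0.46 to −0.31 for KDM1A and −0.49 to −0.39 for HDAC2. It was 0.42 to 0.49 for HDAC9 and 0.40 to 0.49 for SIRT4. Calls were lost without either DZNep array, where the spread comes from the DMSO pair alone. A lost call therefore does not tell whether it rested on the array left out. With all 28869 probe sets of the array tested together, 2 members were higher and 1 lower, beside 388 genes higher and 779 lower.

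**Figure D1:**
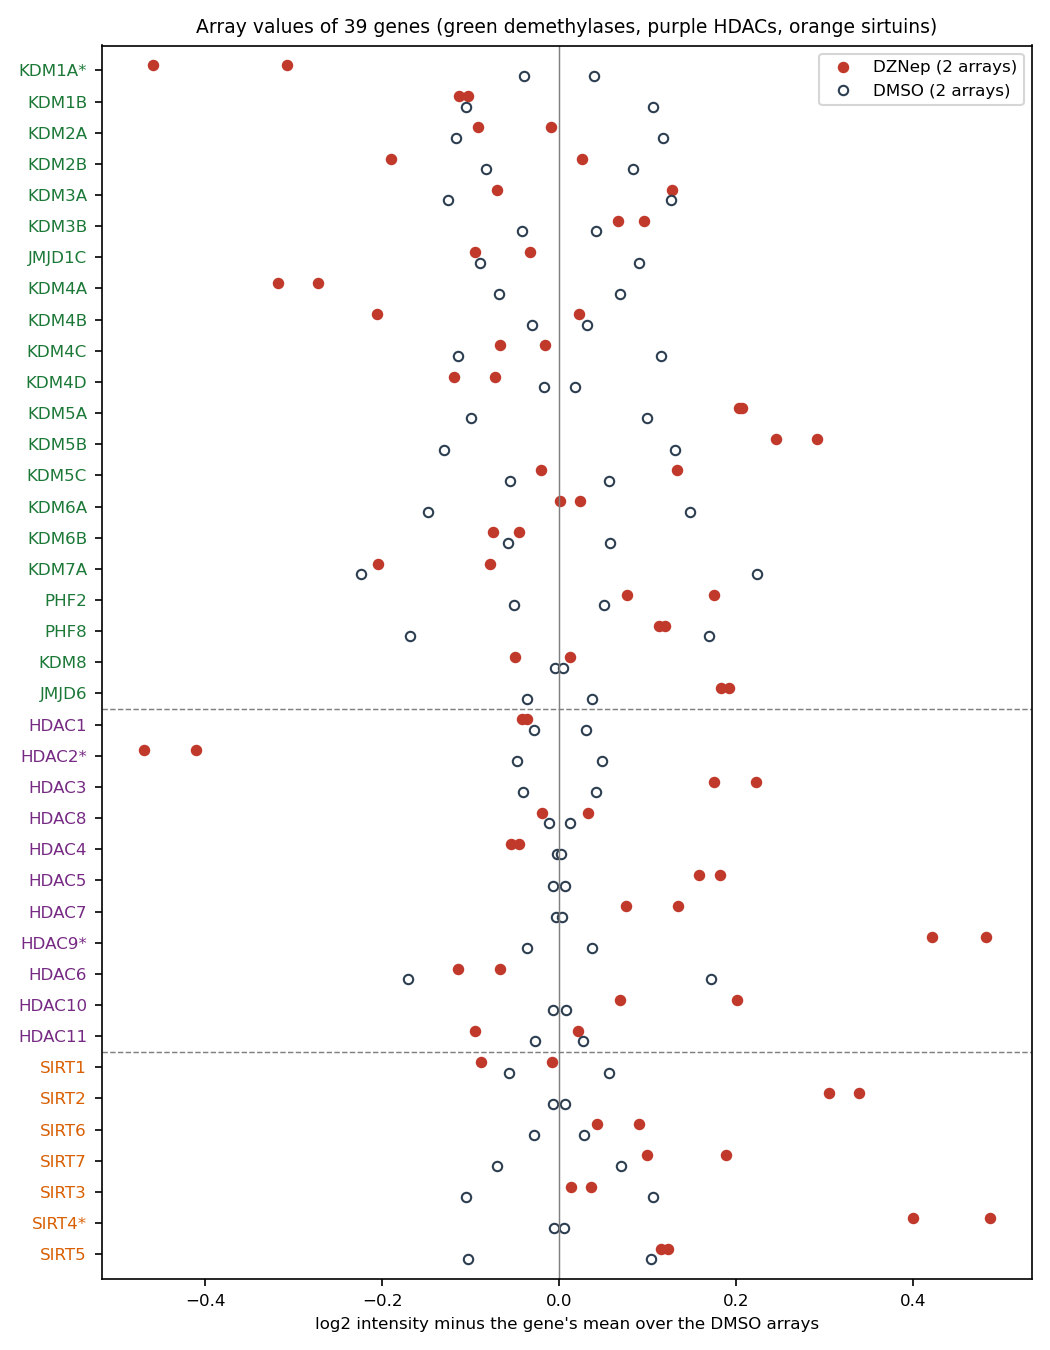
Log2 intensity of each of 39 genes on each array, minus that gene's mean over the DMSO arrays; filled red points are the 2 DZNep arrays, open points the 2 DMSO arrays, and an asterisk marks an adjusted p under 0.05. KDM1A, KDM4A and HDAC2 lie furthest to the left with DZNep, and HDAC9, SIRT4 and SIRT2 furthest to the right.

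The SE of the log2 difference ran from 0.09 to 0.14 over the 39 members, beside a median absolute difference of 0.095. In limma this SE draws on the spread over all genes (7.18 prior degrees of freedom) as well as the gene's own arrays (2 residual). The unadjusted 95% interval of the log2 difference stayed inside a 1.5-fold change in either direction for 35 of 39 members, against 87.0% of all genes. The 4 intervals that reached past it belonged to KDM1A, HDAC2, HDAC9 and SIRT4. Over the 39 members the SD of the log2 difference between arrays was 0.09 within the DZNep pair, 0.14 within the DMSO pair, and 0.19 to 0.22 between a DZNep and a DMSO array. Both DZNep arrays lay above both DMSO arrays for 15 members (background 25.9%) and below them for 6 (background 23.9%), together 53.8%, beside 49.7% of all genes.

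**Figure D2:**
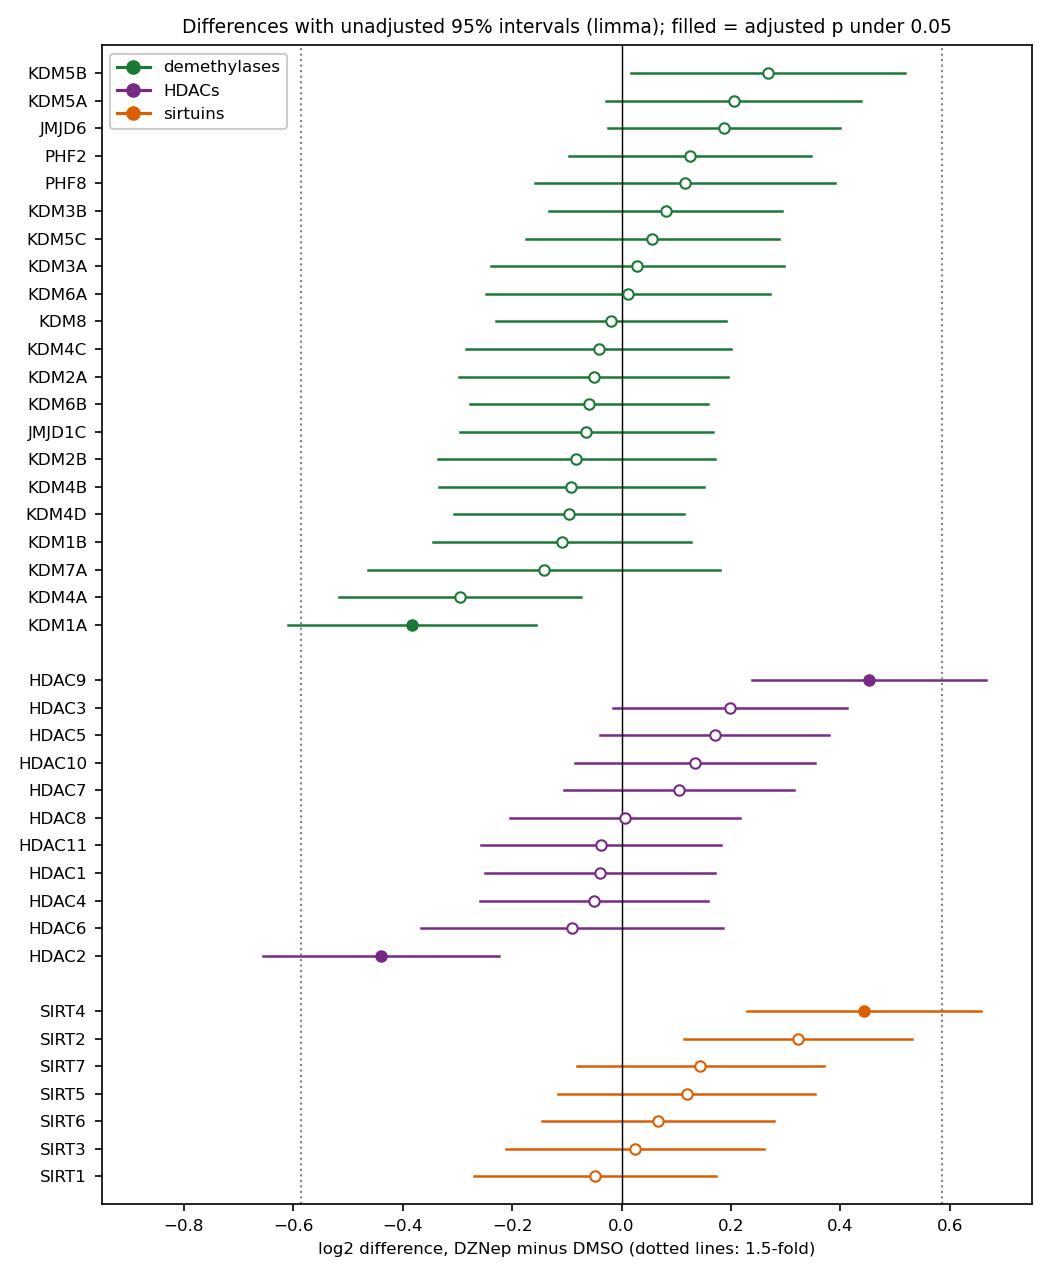
Log2 difference (DZNep minus DMSO) of each gene with its unadjusted 95% interval from limma, in 3 blocks by class; filled points have an adjusted p under 0.05 and dotted lines mark 1.5-fold. The 4 filled points are KDM1A at −0.38, HDAC2 at −0.44, HDAC9 at 0.45 and SIRT4 at 0.44.

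The RefSeq promoters of these 4 genes, 250 bases before to 50 after an annotated start (GRCh38.p14), are shown because they are the members whose transcripts passed the test, a pair lower and a pair higher. They read 5′ to 3′ on the gene's strand, and for genes with several annotated starts the most upstream is given (5 starts for HDAC9, 2 for SIRT4). The array does not tell which start was used. KDM1A lies at chr1:23019218-23019517 (+), HDAC2 at chr6:113971099-113971398 (−), HDAC9 at chr7:18086575-18086874 (+) and SIRT4 at chr12:120291939-120292238 (+). Capitals mark matches, on either strand, to the GC box GGGCGG, the CCAAT box, the E2F sites TTTGGCGC and TTTCCCGC, the cyclic AMP element TGACGTCA and the ATF4 composite site TGATGNAA. None of the marked matches overlaps another.
KDM1A: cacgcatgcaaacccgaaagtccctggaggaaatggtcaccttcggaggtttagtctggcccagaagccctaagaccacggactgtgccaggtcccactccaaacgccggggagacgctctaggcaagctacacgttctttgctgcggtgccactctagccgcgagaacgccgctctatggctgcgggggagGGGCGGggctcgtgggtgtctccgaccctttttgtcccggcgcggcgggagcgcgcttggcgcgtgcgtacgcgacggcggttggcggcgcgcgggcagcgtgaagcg
HDAC2: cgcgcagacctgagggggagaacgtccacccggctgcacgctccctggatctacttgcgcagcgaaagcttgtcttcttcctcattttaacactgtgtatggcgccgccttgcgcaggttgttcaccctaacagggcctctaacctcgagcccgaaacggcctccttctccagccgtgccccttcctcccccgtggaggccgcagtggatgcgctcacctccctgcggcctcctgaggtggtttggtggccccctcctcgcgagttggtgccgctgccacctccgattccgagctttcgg
HDAC9: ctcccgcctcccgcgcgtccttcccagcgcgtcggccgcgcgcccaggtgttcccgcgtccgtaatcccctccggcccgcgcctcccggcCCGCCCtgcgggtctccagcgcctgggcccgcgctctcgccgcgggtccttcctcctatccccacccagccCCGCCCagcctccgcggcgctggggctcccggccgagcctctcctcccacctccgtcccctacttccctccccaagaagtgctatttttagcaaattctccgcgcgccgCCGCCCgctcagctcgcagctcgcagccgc
SIRT4: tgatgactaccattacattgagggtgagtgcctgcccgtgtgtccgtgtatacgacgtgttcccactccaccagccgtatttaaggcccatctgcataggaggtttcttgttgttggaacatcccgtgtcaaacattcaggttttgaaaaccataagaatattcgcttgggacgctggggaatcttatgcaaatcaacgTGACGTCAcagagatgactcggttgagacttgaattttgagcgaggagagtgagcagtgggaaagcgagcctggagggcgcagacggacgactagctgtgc

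KDM1A held 1 GC box in this window, HDAC9 held 3, and HDAC2 and SIRT4 held none, where 45.0% of 35116 RefSeq promoters of the same length hold at least 1. SIRT4 held 1 cyclic AMP element, which 1.85% of all promoters hold. None of these 4 windows held a CCAAT box, present in 34.6% of promoters. Of the 4 other annotated HDAC9 starts, however, 3 held 2 CCAAT matches each, and none held a GC box. The windows of a pair of them overlap and share both matches. In the remaining window of these 3, the 2 matches overlap each other on opposite strands. The window of the other annotated SIRT4 start held no cyclic AMP element and no other searched motif. The 4 printed windows also lacked any of the E2F or ATF4 sites searched, which 0.652%, 1.63% and 3.62% of promoters hold. In the printed windows the lower pair shared no searched motif, nor did the higher pair. GC content was 66.7% for KDM1A, 64.0% for HDAC2, 75% for HDAC9 and 50.3% for SIRT4.

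Among the demethylases, 1 of 21 fell and none rose, 4.76% of the class beside 10.3% of all genes. By limma at an unadjusted p under 0.05, 2 were lower and 1 higher, beside 12.7% lower and 9.43% higher over all genes. The flavin-dependent KDM1A, also known as LSD1, acts with the CoREST scaffold on methyl marks of active enhancers and promoters. Its log2 intensity was 9.30 and 9.45 on the DZNep arrays and 9.80 and 9.72 on the DMSO arrays. Both DZNep values were the lower, and the groups were apart. The fall was 1.30-fold (limma, log2 difference −0.38, SE 0.10, adjusted p = 0.0417). This call ended without DZNep replicate 1 (adjusted p = 0.425), DZNep replicate 2 (0.0918) or DMSO replicate 1 (0.101). It also ended when 16, a value just under the lowest intensity of every array, was subtracted before log2 (limma adjusted p = 0.0897). With all 28869 probe sets tested together, an alternative added after seeing the data, the limma adjusted p was 0.0812, and HDAC2, HDAC9 and SIRT4 stayed below 0.05.

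KDM1B, the other flavin-dependent enzyme, read 9.03 and 9.02 with DZNep against 9.24 and 9.02 with DMSO, and its groups overlapped (log2 difference −0.11, limma adjusted p = 0.644). Within each array, log2 KDM1A minus log2 KDM1B was 0.27 and 0.43 with DZNep and 0.56 and 0.69 with DMSO. This pair, like the HDAC2 with HDAC1 and HDAC9 with HDAC4 pairs, was picked after its values were seen, so its values are a description with no test.

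The KDM4 enzymes, which act on trimethylated lysines of histone H3, all had values below zero. KDM4A, the most studied of them, read 9.06 and 9.02 with DZNep and 9.41 and 9.27 with DMSO, without overlap. Its log2 difference of −0.30 missed the threshold (limma, SE 0.10, adjusted p = 0.0987). It passed without DMSO replicate 2 (−0.36, adjusted p = 0.0479), with an intensity trend (0.0357) and without the dimmest 50% of genes (0.0421). KDM4B, KDM4C and KDM4D had log2 differences of −0.09, −0.04 and −0.10 and were not called. The sign turned for KDM4B without DZNep replicate 1 (0.02) and for KDM4C without DMSO replicate 1 (0.07). KDM4D was dim on every array, between 6.10 and 6.23.

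The KDM5 enzymes, which strip methyl groups from the trimethylated lysine of active promoters, had values above zero and none was called. KDM5B read 9.33 and 9.37 with DZNep and 9.21 and 8.95 with DMSO. The groups were apart, but the DMSO arrays differed from each other by about as much as the groups did. Its log2 difference was 0.27 (limma, SE 0.11, adjusted p = 0.191), became 0.40 when DMSO replicate 1 was dropped (adjusted p = 0.0481), and was 0.14 with DMSO replicate 2 dropped instead. KDM5A read 9.74 and 9.74 with DZNep against 9.64 and 9.44 with DMSO, also without overlap (limma, log2 difference 0.21, SE 0.10, adjusted p = 0.295). KDM5C overlapped, at 8.72 and 8.88 with DZNep against 8.80 and 8.69 with DMSO, and its difference of 0.06 became −0.02 without DZNep replicate 2.

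The KDM6 enzymes remove the methyl groups that EZH2 deposits, and neither differed between the groups beyond the replicate spread. KDM6A, also called UTX, read 8.20 and 8.18 with DZNep and 8.33 and 8.03 with DMSO, so both DZNep arrays fell between the controls. Its log2 difference was 0.01, with an unadjusted 95% interval from −0.25 to 0.27. KDM6B, the inducible JMJD3, read 7.75 and 7.72 with DZNep against 7.85 and 7.73 with DMSO, a log2 difference of −0.06 with an interval from −0.28 to 0.16. The limma adjusted p was 0.970 for KDM6A and 0.803 for KDM6B.

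The other JmjC families were not called either. The KDM2 proteins bind unmethylated CpG islands, and KDM2A and KDM2B had log2 differences of −0.05 and −0.08. In the KDM3 family, which acts on a repressive lysine mark, KDM3A had 0.03, KDM3B 0.08 and JMJD1C −0.06. In the KDM7 family, whose members dock on promoters through a PHD finger, KDM7A had −0.14, PHF2 0.13 and PHF8 0.12. KDM7A had the widest spread between the DMSO arrays of all members, at 7.45 and 7.01, against 7.02 and 7.15 with DZNep. JMJD6, a JmjC lysyl hydroxylase that acts on splicing factors, read 8.52 and 8.53 with DZNep and 8.30 and 8.37 with DMSO, without overlap (log2 difference 0.19, limma adjusted p = 0.293). KDM8, a JmjC oxygenase needed for cell cycle progression, was the only member with more than 1 probe set of its own symbol. The brighter of its 2 gave −0.02 and the other 0.14.

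Among the HDACs, 1 of 11 rose and 1 fell, and with so few calls the 18.2% of the class, beside 10.3% of all genes, describes no more than these 2 genes. At an unadjusted p under 0.05 the same counts held, 1 and 1, beside 9.43% higher and 12.7% lower over all genes. HDAC1 and HDAC2 are close paralogs that form the catalytic core of the NuRD, Sin3 and CoREST complexes. HDAC2 read 9.94 and 9.88 on the DZNep arrays and 10.40 and 10.30 on the DMSO arrays, with both DZNep values well below the controls. It fell 1.36-fold (limma, log2 difference −0.44, SE 0.10, adjusted p = 0.0195). The call ended without DZNep replicate 1 (adjusted p = 0.0811), DZNep replicate 2 (0.168) or DMSO replicate 1 (0.0515), and with 16 subtracted (0.0530).

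HDAC1 was nearly level, at 11.04 and 11.05 with DZNep and 11.06 and 11.12 with DMSO (limma, log2 difference −0.04, adjusted p = 0.870). Its sign turned under quantile (0.02) and cyclic loess (0.02) normalization. Within each array, log2 HDAC2 minus log2 HDAC1 was −1.11 and −1.17 with DZNep against −0.66 and −0.82 with DMSO. HDAC3, the enzyme of the NCoR and SMRT corepressors, read 9.90 and 9.85 with DZNep and 9.72 and 9.64 with DMSO. That was a log2 difference of 0.20 that was not called (limma, SE 0.09, adjusted p = 0.265). HDAC8, which deacetylates a cohesin subunit, had a difference of 0.01 (limma adjusted p = 0.979).

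Class IIa HDACs have weak catalytic activity and act as signal-dependent repressors bound to MEF2 transcription factors. HDAC9 read 8.25 and 8.19 with DZNep and 7.80 and 7.73 with DMSO. Both DZNep arrays stood above both controls, and the rise was 1.37-fold (limma, log2 difference 0.45, SE 0.09, adjusted p = 0.0164). It held with either DMSO array left out and ended without DZNep replicate 1 (adjusted p = 0.144) or DZNep replicate 2 (0.0671), at values of 0.42 and 0.48.

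The other class IIa genes also had groups that did not overlap, which held for 49.7% of all genes. Their differences were smaller and were not called. HDAC5 read 8.78 and 8.81 with DZNep and 8.63 and 8.62 with DMSO (log2 difference 0.17, limma adjusted p = 0.342). HDAC7 read 8.22 and 8.16 with DZNep and 8.08 and 8.09 with DMSO (0.11, limma adjusted p = 0.608). HDAC4 was the exception in direction, at 8.22 and 8.21 with DZNep against 8.26 and 8.27 with DMSO (−0.05, limma adjusted p = 0.831). Within each array, log2 HDAC9 minus log2 HDAC4 was 0.03 and −0.02 with DZNep and −0.46 and −0.54 with DMSO, also a pair chosen after its values were seen.

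Of the remaining HDACs none was called. HDAC6, the cytoplasmic tubulin deacetylase, read 7.99 and 7.94 with DZNep, inside its DMSO values of 8.22 and 7.88 (limma, log2 difference −0.09, SE 0.12, adjusted p = 0.758). HDAC10, a polyamine deacetylase, read 8.25 and 8.38 with DZNep and 8.19 and 8.17 with DMSO (log2 difference 0.13, limma adjusted p = 0.501). HDAC11, a fatty acyl hydrolase, was dim on every array, between 6.34 and 6.46, with a difference of −0.04.

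Of the 7 sirtuins 1 rose and none fell, 14.3% of the class beside 10.3% of all genes. Values were above zero for 6 of them, beside 55.4% of all genes. At an unadjusted p under 0.05, 2 were higher and none lower, beside 9.43% higher and 12.7% lower over all genes. SIRT4, a mitochondrial sirtuin with lipoamidase and ADP-ribosyltransferase activity, read 6.91 and 7.0 with DZNep and 6.51 and 6.52 with DMSO. The controls were almost identical and both DZNep arrays were above them. The rise was 1.36-fold (limma, log2 difference 0.44, SE 0.09, adjusted p = 0.0177). It held with either DMSO array left out and ended without DZNep replicate 1 (adjusted p = 0.0636) or DZNep replicate 2 (0.189). Its intensity was low enough to fall among the dimmest 50% of genes, and with 16 subtracted the difference was 0.52.

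SIRT2, a mainly cytosolic tubulin and histone deacetylase, read 9.69 and 9.65 with DZNep and 9.34 and 9.35 with DMSO. The groups were well apart, and the log2 difference of 0.32 missed the threshold (limma, SE 0.09, adjusted p = 0.0591). It passed under quantile (0.38, adjusted p = 0.0266) and cyclic loess (0.36, adjusted p = 0.0339) normalization, with an intensity trend (adjusted p = 0.0129) and without the dimmest 25% (0.0450) or 50% (0.0227) of genes. It also passed with the crossed replicate block, an alternative added after seeing the data (limma adjusted p = 0.0359). That pairing was chosen from these same values, so this pass adds no support. Leaving out any 1 array kept it between 0.31 and 0.34 without a call.

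The remaining 5 sirtuins had log2 differences from −0.05 to 0.14. SIRT7, the nucleolar sirtuin, read 8.83 and 8.92 with DZNep and 8.80 and 8.66 with DMSO (0.14, limma adjusted p = 0.481). SIRT5, a mitochondrial desuccinylase, read 8.31 and 8.30 with DZNep against 8.29 and 8.08 with DMSO (0.12, limma adjusted p = 0.601). The group difference of SIRT5 was smaller than the gap between its DMSO arrays, and that of SIRT7 was about as large as the gap between its own. SIRT6, a chromatin sirtuin tied to DNA repair, had 0.07. SIRT3, the main mitochondrial deacetylase, read 9.05 and 9.07 with DZNep, inside its DMSO values of 8.93 and 9.14 (limma, 0.02, SE 0.10, adjusted p = 0.937). SIRT1, a nuclear deacetylase of p53 and histones, read 8.81 and 8.89 with DZNep and 8.96 and 8.84 with DMSO, with overlap (limma, −0.05, SE 0.10, adjusted p = 0.846). Both changed sign without DMSO replicate 1, and SIRT3 also under median centring.

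**Figure D3:**
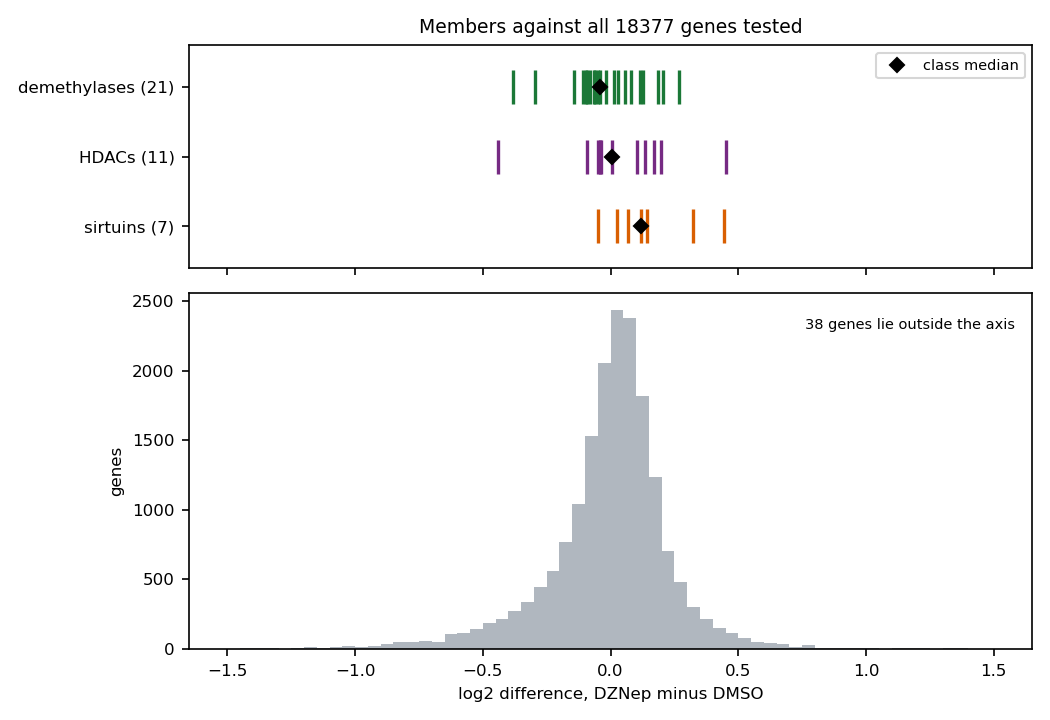
Log2 difference (DZNep minus DMSO) of each member as a tick by class with the class median as a diamond (top), above the distribution over all 18377 genes tested (bottom, 38 genes outside the axis). The medians lie at −0.04 for demethylases, 0.01 for HDACs and 0.12 for sirtuins, inside the central peak of all genes.

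Set against each other, demethylases had a median log2 difference of −0.04 and the 18 HDACs and sirtuins together 0.09, beside 0.02 over all genes. Of the demethylases 9 of 21 had values above zero, and of the HDACs and sirtuins 12 of 18. The class difference of −0.13 kept its sign under every alternative run. Some of these could not change it. The blocks, the intensity trend and the fit over all probe sets keep the same log2 differences, and median centring shifts all alike. Its size depended on single arrays, at −0.05 without DZNep replicate 1, −0.02 without DMSO replicate 1 and −0.20 without DMSO replicate 2. For the demethylases alone, the median became 0.07 when DMSO replicate 1 was dropped and −0.12 when DMSO replicate 2 was. No test was made of a class, since the classes were drawn up with results of these data known.

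The demethylases were also the class in which the control arrays differed most. DMSO replicate 1 read higher than DMSO replicate 2 for 19 of 21 demethylases, by a median of 0.17 on the log2 scale. The count was 6 of 11 for HDACs, 3 of 7 for sirtuins, and 47.4% of all genes, whose median was −0.01. Between the DZNep arrays, replicate 2 was the higher for 14 of 21 demethylases, by a median of 0.05. Groups overlapped for 13 of 21 demethylases and for 5 of the 18 HDACs and sirtuins, beside 50.3% of all genes, and the difference between the classes was not tested. The part of the control arrays in the class difference was not tested beyond the values without each array.

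**Figure D4:**
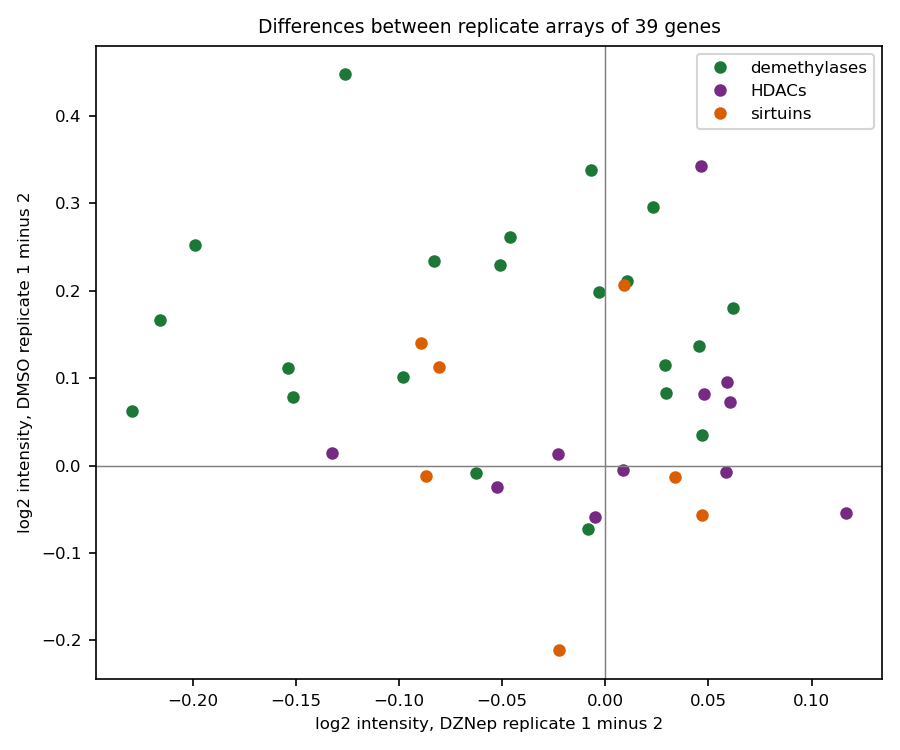
Difference in log2 intensity between the replicate arrays of each group for the 39 genes, DZNep replicate 1 minus 2 on the horizontal axis and DMSO replicate 1 minus 2 on the vertical axis, coloured by class. Of the demethylases, 19 of 21 lie above zero on the vertical axis.

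**Figure D5:**
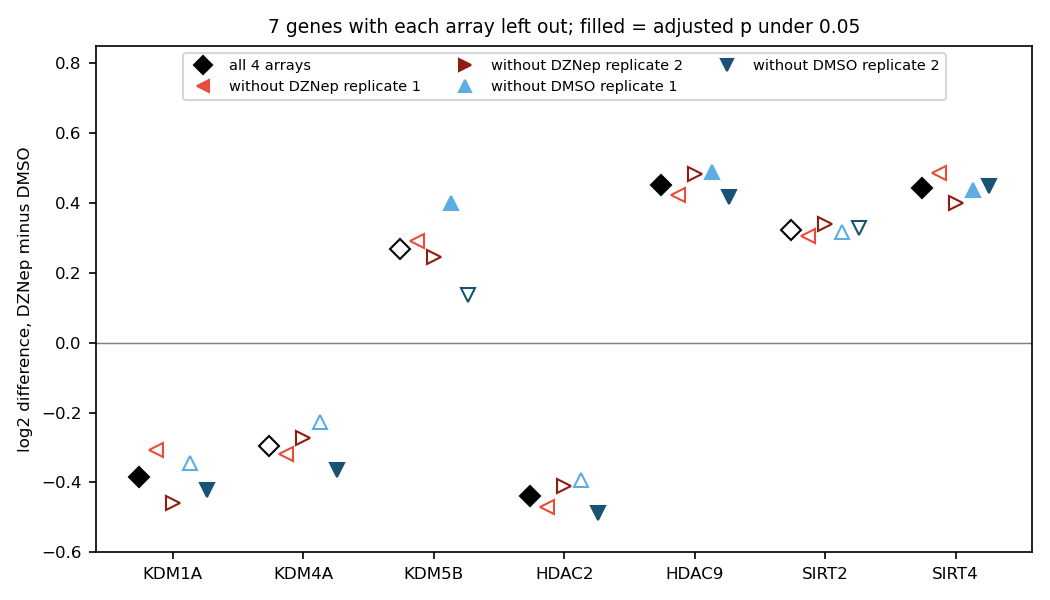
Log2 difference (DZNep minus DMSO) of the 7 members with an unadjusted p under 0.05, with all 4 arrays and with each array left out; filled symbols have an adjusted p under 0.05. All 7 keep their sign, and no gene is called once either DZNep array is left out.

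Few partners of these enzymes in corepressor complexes were called. Of 42 partner genes measured from a list of 46, none rose and 2 fell, 4.76% beside 10.3% of all genes. The median log2 difference was −0.02. By limma at an unadjusted p under 0.05 there were 5 higher and 5 lower, beside 9.43% and 12.7% of all genes. Groups did not overlap for 57.1% of the partners, beside 49.7% of all genes. With a single array left out, 0 to 1 partner fell and 0 to 1 rose. No partner fell when all 28869 probe sets were tested together. RBBP7 and MTA1, which fell, can both be part of the NuRD complex. Other NuRD subunits of the list were not called and had log2 differences of 0.32 for CHD3, 0.17 for GATAD2B, 0.01 for CHD4, −0.03 for MBD3, −0.06 for MTA2, −0.09 for MTA3, −0.11 for GATAD2A, −0.14 for MBD2 and −0.31 for RBBP4. RBBP7, a histone-binding subunit, read 9.93 and 9.96 with DZNep and 10.28 and 10.47 with DMSO (limma, log2 difference −0.43, SE 0.10, adjusted p = 0.0294). MTA1, a scaffold subunit, read 8.27 and 8.20 with DZNep and 8.84 and 8.52 with DMSO (limma, −0.45, SE 0.12, adjusted p = 0.0440). Both calls ended without either DZNep array (adjusted p from 0.0650 to 0.164). RBBP7 was also lost without DMSO replicate 2 (0.0595) and under quantile (0.0557) or cyclic loess (0.0584) normalization, and MTA1 without DMSO replicate 1 (0.115), where its value was −0.29. With 16 subtracted, RBBP7 (limma adjusted p = 0.0702) and MTA1 (0.0895) were not called, nor with all probe sets tested (0.0647 and 0.102).

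The enzymes that add acetyl groups included 1 gene that fell among 13 measured of 16 listed, and none that rose. That is 7.69% of the list, beside 10.3% of all genes. By limma at an unadjusted p under 0.05, 3 were higher and 1 lower, beside 9.43% higher and 12.7% lower over all genes. Values were above zero for 10 of the 13, beside 55.4% of all genes. HAT1, which acetylates newly made histones, read 8.93 and 8.91 with DZNep and 9.24 and 9.43 with DMSO (limma, log2 difference −0.41, SE 0.10, adjusted p = 0.0338). The call ended without either DZNep array (0.144 and 0.182), without DMSO replicate 2 (0.0675), under quantile (0.0691) or cyclic loess (0.0562) normalization, with 16 subtracted (0.0761) and with all probe sets tested (0.0725). The median of this list was 0.15, and 1 gene of it rose without DMSO replicate 1. Among 12 acetyl-lysine readers of 13 listed, YEATS4 fell and none rose, 8.33% beside 10.3% of all genes, with a median of −0.04. This YEATS domain protein read 9.09 and 9.16 with DZNep and 9.94 and 9.92 with DMSO, 1.74-fold lower (limma, −0.80, SE 0.09, adjusted p = 0.000932), a call that held when any 1 array was left out. Without DMSO replicate 2, 2 readers fell. BRD genes of this list are BET and related bromodomain proteins, and none of those measured was called.

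Of 9 further JmjC proteins measured from 11 listed, 1 rose and none fell, 11.1% beside 10.3% of all genes, with a median of 0.11. JARID2, a PRC2 partner without demethylase activity, read 11.02 and 11.04 with DZNep and 10.63 and 10.58 with DMSO (limma, log2 difference 0.42, SE 0.09, adjusted p = 0.0201). The call ended without DZNep replicate 1 (0.126) or DZNep replicate 2 (0.160), and with 16 subtracted (0.0549). It held with either DMSO array left out.

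Genes that make, use or break down the cofactors of these enzymes included 5 that fell and 1 that rose, of 25 measured from 31 listed. That is 24.0% of the list, beside 10.3% of all genes. A 1.5-fold change was passed by 5 of the 25, beside 4.30% of all genes, and the median was −0.04. IDH2 and IDH1 make alpha-ketoglutarate, the cosubstrate of JmjC demethylases, in mitochondria and cytosol. IDH2 read 8.92 and 9.04 with DZNep and 9.97 and 10.07 with DMSO, 2.06-fold lower (limma, log2 difference −1.05, SE 0.10, adjusted p = 0.000333). IDH1 read 10.31 and 10.38 with DZNep and 11.24 and 10.92 with DMSO, 1.66-fold lower (limma, −0.73, SE 0.12, adjusted p = 0.00498). GOT1, a transaminase that uses alpha-ketoglutarate, read 8.08 and 8.07 with DZNep and 9.26 and 9.0 with DMSO, 2.08-fold lower (limma, −1.06, adjusted p = 0.000541).

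Genes of NAD turnover, the cosubstrate of sirtuins, moved both ways. NAMPT, the rate-limiting enzyme of NAD salvage, read 9.17 and 9.17 with DZNep and 9.97 and 9.70 with DMSO (limma, log2 difference −0.67, SE 0.11, adjusted p = 0.00583). CD38, a surface enzyme that breaks NAD down, read 7.31 and 7.43 with DZNep and 8.39 and 8.02 with DMSO (limma, −0.84, SE 0.13, adjusted p = 0.00386). NMNAT1, the nuclear enzyme of the last step of NAD synthesis, read 7.37 and 7.40 with DZNep and 6.96 and 6.72 with DMSO (limma, 0.54, SE 0.11, adjusted p = 0.0129). All 6 calls in this list held when any 1 array was left out. IDH1, NAMPT and NMNAT1 were named after their values were seen, and the other 3 had the largest changes of the list.

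As a check of the cell type, 9 markers of the labelled myeloid line were measured, with log2 intensities from 6.55 for CD14 to 12.82 for LYZ. The 13 measured markers of T cells, B cells, red cells, epithelium and fibroblasts read from 5.26 for MS4A1 to 8.14 for KRT8, and none was called. CD14 and CSF1R, which mark monocytes, lay inside that range on every array and ITGAM on 3 of 4. Levels of different probe sets cannot be ranked, so these ranges do not tell whether a marker was present. Of the myeloid markers 2 rose and 1 fell, LYZ, CSF1R and FLT3 with log2 differences of 0.53, 0.47 and −0.94 (limma adjusted p = 0.0114, 0.0128 and 0.000535). The call of LYZ ended without DZNep replicate 1 (0.0706), and that of CSF1R without DZNep replicate 1 (0.0940) or DZNep replicate 2 (0.0769). Their part in the differences of the enzymes was not tested, and in bulk RNA fewer cells of a type and less RNA per cell cannot be told apart.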

How the data were processed

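Total RNA of the 4 samples was labelled with biotin through an Affymetrix whole-transcript sense kit, per the labels' protocols. The deposited values are linear intensities, 1 for each probe set on each array, and the authors made them with RMA, per the submitters' processing notes. Which RMA version they used, and whether a constant was added, is not given in the sources used here. No array had an intensity below 18.1.

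Intensities were turned into log2 values without further normalization or filter. Gene names came from the platform annotation and may be outdated. It gives 1 symbol to 19310 of the 28869 probe sets, several to 1752, and does not list 7807. The members and lists were chosen with earlier results of these data known. All 18377 genes were fitted with limma 3.58.1 in R 4.3.3 (group as the only term, eBayes without a trend, two-sided tests). The p-values were adjusted by Benjamini-Hochberg across these genes, with a threshold of 0.05. There were 2 residual and 7.18 prior degrees of freedom. Data were simulated for this comparison with 18377 genes, of which 200 were changed. A change of 0.5 on the log2 scale was recovered in 28.2% and a change of 1 in 98.4% of cases. Of the simulated calls, 4.86% were false on average. In the real data 1892 genes were called, far more than 200, so these shares may not hold for them.

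Full values are given for every called member, for the 2 largest rises and falls of each class, and for up to 3 called genes of each of 5 context lists. Genes picked outside this rule are marked as such. The alternatives were a replicate block, 3 normalizations, 2 filters on dim genes, an intensity trend, 16 subtracted from each intensity, the mean over probe sets and leaving out each array. Where that leaves 1 sample in a group, its spread is taken from the other group. Same-numbered arrays deviated from their group means in opposite directions (r = −0.22 across genes, which are not independent replicates), so a crossed block was added after seeing the data, as was a fit and adjustment over all probe sets. Promoters came from the RefSeq table (36 of 39 members matched). The number of arrays limits the precision.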

Additional observations from a re-analysis of the deposited data

How the results depend on the processing

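Of 579 recomputed member values, 529 kept their direction and side of the threshold, 13 lost a call, 10 gained 1 and 27 changed sign. None of the 4 called members changed sign. With a replicate block, 754 genes were higher, 1353 lower, and 2 and 2 members were called. The shared numbers are not stated to mark a culture or day, and the block changed no call of a member. It could not change a log2 difference. All members had the same SE of 0.13 in that fit, so its calls followed the size of the difference alone. With the crossed block, a pairing chosen from these same values, 1034 genes were higher and 1690 lower, and 3 and 2 members were called. With all 28869 probe sets tested together, added after seeing the data, 388 of the 18377 genes were higher and 779 lower. In that fit 2 and 1 members were called. With 16 subtracted, 0 members were lower, and the cause was not tested. Leaving out each array in turn gave 336 to 776 genes higher and 734 to 1662 lower, and 0 to 3 members in each direction. The counts over all genes moved most without DZNep replicate 2 (336 higher) and DZNep replicate 1 (439 higher and 734 lower). No member was called lower without DZNep replicate 1, DZNep replicate 2 or DMSO replicate 1.

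Sign changes touched 17 members with small differences, and the cause was not tested. Leaving out each array gave −0.17 to 0.066 for KDM2A, −0.19 to 0.025 for KDM2B, −0.097 to 0.15 for KDM3A and −0.15 to 0.026 for JMJD1C. It gave −0.21 to 0.023 for KDM4B, −0.16 to 0.074 for KDM4C, −0.021 to 0.13 for KDM5C and −0.14 to 0.16 for KDM6A. It gave −0.37 to 0.082 for KDM7A, −0.053 to 0.28 for PHF8, −0.050 to 0.012 for KDM8 and −0.020 to 0.033 for HDAC8. It gave −0.26 to 0.080 for HDAC6, −0.096 to 0.021 for HDAC11, −0.11 to 0.0077 for SIRT1 and −0.081 to 0.13 for SIRT3. Median centring gave −0.0040 for KDM3A, −0.021 for KDM6A, −0.026 for HDAC8 and −0.0077 for SIRT3. Quantile normalization gave 0.015 for JMJD1C and 0.022 for HDAC1, cyclic loess 0.015 for HDAC1, and the mean over probe sets 0.058 for KDM8. The HDAC median was −0.03 under median centring, and the demethylase median was 0.01 without DZNep replicate 1.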
